A study of Homo sapiens with 20 samples.

Results

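A group of 9 genes known as markers of undifferentiated human stem cells, chosen by name and leaving aside the core transcription factors, was followed in RNA sequencing counts: the RNA-binding protein genes LIN28A, LIN28B and L1TD1, the surface protein genes CD9, THY1 and PODXL, the signalling genes LCK and GAL, and the telomere protein gene TERF1. All 9 were among the 54435 features of the deposited files and among the 16792 features that passed the filter on low counts. The cells were H1, an established human embryonic stem cell line, grown without feeder cells. The study compared 2 H1 clones labelled as knockouts of the long noncoding RNA gene DIGIT, KO1 and KO2, with unedited wild-type cells (WT). At day 4, cells had been differentiated toward endoderm in RPMI medium supplemented with B27 and Activin A at 50 ng/ml, an agonist of NODAL-type receptors. At day 0, they were undifferentiated in mTeSR1 medium. The 6 groups were KO1 day 4, KO2 day 4, WT day 4, KO1 day 0, KO2 day 0 and WT day 0, each with 2 libraries, so each knockout line is 1 clone and its libraries are not independent clones. DIGIT itself was not analysed here, and the knockout is taken from the labels.

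LIN28A and LIN28B are RNA-binding proteins that hold back the let-7 microRNAs. They bind precursor let-7 hairpins, often at a GGAG motif in the loop region, and LIN28A recruits the uridylyl transferase TUT4, the product of ZCCHC11, which marks the precursor for decay. L1TD1 is an RNA-binding protein derived from a LINE-1 transposon and a known partner of LIN28 in human stem cells. CD9 is a tetraspanin of the plasma membrane, THY1 (CD90) is a small GPI-anchored glycoprotein, and podocalyxin, from PODXL, is a sialomucin whose sugar chains carry epitopes used to recognise human stem cells. LCK is a SRC-family tyrosine kinase best known from T cells, GAL codes for the neuropeptide galanin, and TERF1 codes for TRF1, the shelterin subunit that binds double-stranded telomere repeats.

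The sequences on which the LIN28 proteins act are shown to make the family resemblance visible. Mature let-7 molecules pair with their targets through the seed, bases 2 to 8, set in capitals here, and all 8 distinct 5p let-7 sequences in the RefSeq table (GRCh38.p14) held the same GAGGUAG seed. Sequences of 4 of them follow, from chr9:94175962-94175983 (let-7a, plus strand), chr22:46113691-46113712 (let-7b, plus strand), chr9:94178841-94178862 (let-7d, plus strand) and chr3:52268336-52268357 (let-7g, minus strand).
hsa-let-7a-5p: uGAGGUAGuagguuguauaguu
hsa-let-7b-5p: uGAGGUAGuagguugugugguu
hsa-let-7d-5p: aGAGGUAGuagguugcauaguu
hsa-let-7g-5p: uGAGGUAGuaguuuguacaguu
The precursor hairpins differ in the GGAG motif, which was searched on the RNA strand only and is in capitals in the next 3 sequences. It was present in 9 of 11 let-7 hairpins (81.8%) and in 678 of all 1562 miRNA hairpins of the table (43.4%). The hairpins of MIRLET7G (chr3:52268278-52268361, minus strand) and MIRLET7A1 (chr9:94175957-94176036, plus strand) held it, and that of MIRLET7A3 (chr22:46112749-46112822, plus strand) did not. A match is a description of these letters and not a measured binding site.
MIRLET7G: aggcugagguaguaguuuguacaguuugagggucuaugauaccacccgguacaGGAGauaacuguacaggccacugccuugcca
MIRLET7A1: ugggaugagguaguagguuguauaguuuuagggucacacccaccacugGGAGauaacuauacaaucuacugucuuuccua
MIRLET7A3: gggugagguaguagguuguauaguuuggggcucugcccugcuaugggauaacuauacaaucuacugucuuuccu
The levels of mature let-7 were not analysed here.

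Libraries held 9942016 to 21394547 counts on named features, and a floor of 3 counts equals 0.133 to 0.294 CPM, the count scaled to a common library size with TMM factors. Day separated the libraries on the first principal component, which held 71.9% of the variance. The KO1 day 0 libraries differed from each other by a chi-square of 22.0 per gene, against 1.96 to 4.11 in the other pairs, and KO1 day 0 replicate 2 stood apart, so results that rest on this pair are also given with 1 of its libraries left out. The summed level of 8 definitive endoderm markers (SOX17, FOXA2, GATA4, GATA6, CXCR4, CER1, EOMES, HHEX) was 5394 to 5484 CPM in KO1 day 4, 1004 to 1244 CPM in KO2 day 4 and 4839 to 5364 CPM in WT day 4, against 6.43 to 14.2 CPM at day 0. The sum of 7 pluripotent cell markers was 2533 to 2714 CPM in KO1 day 4, 3793 to 3839 CPM in KO2 day 4 and 2694 to 2848 CPM in WT day 4, against 3978 to 4529 CPM at day 0. These are bulk libraries, in which fewer cells of a type and less RNA per cell cannot be told apart. All tests are edgeR's quasi-likelihood test with Benjamini-Hochberg adjustment over the 16792 features, with a threshold of 0.05 on the adjusted p. The labels do not state whether replicates were grown as separate cultures, so p-values measure only the spread between these libraries. All 6 groups share 1 estimate of the spread in a fit. The KO1 day 0 pair therefore also enters the p-values of comparisons without KO1, which can change when 1 of its libraries is left out. A log2 fold change is a difference of log2 CPM and carries its standard error (SE).

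The first comparison asks what 4 days of differentiation did to the 9 markers. In WT cells, 7 of them fell, 1 rose and 1 did not pass, against 25.4% of all tested features that were called lower and 24.3% that were called higher. LCK fell the most, followed by TERF1 and THY1, while LIN28A and L1TD1 fell only slightly. GAL rose, and LIN28B did not pass, so these 2 genes did not follow the description of the group as genes enriched in undifferentiated cells. The median log2 fold change of the 9 in WT was -0.61, and that of all tested features was -0.004. In KO1, 6 fell, 2 rose and 1 did not pass, where 29.3% of all features were lower and 29.1% higher. In KO2, 6 fell and 3 rose, where 25.7% were lower and 25.0% higher. The medians were -0.90 in KO1 and -0.46 in KO2. In KO1, leaving out day 0 replicate 1 or replicate 2 gave -0.40 and -0.39 for LIN28A, -0.93 and -0.87 for CD9, -1.15 and -1.43 for THY1 and -1.47 and -1.31 for PODXL. The same exclusions gave -1.86 and -2.20 for LCK, 3.69 and 3.73 for GAL and -1.96 and -1.79 for TERF1, all of them called.

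**Figure D1:**
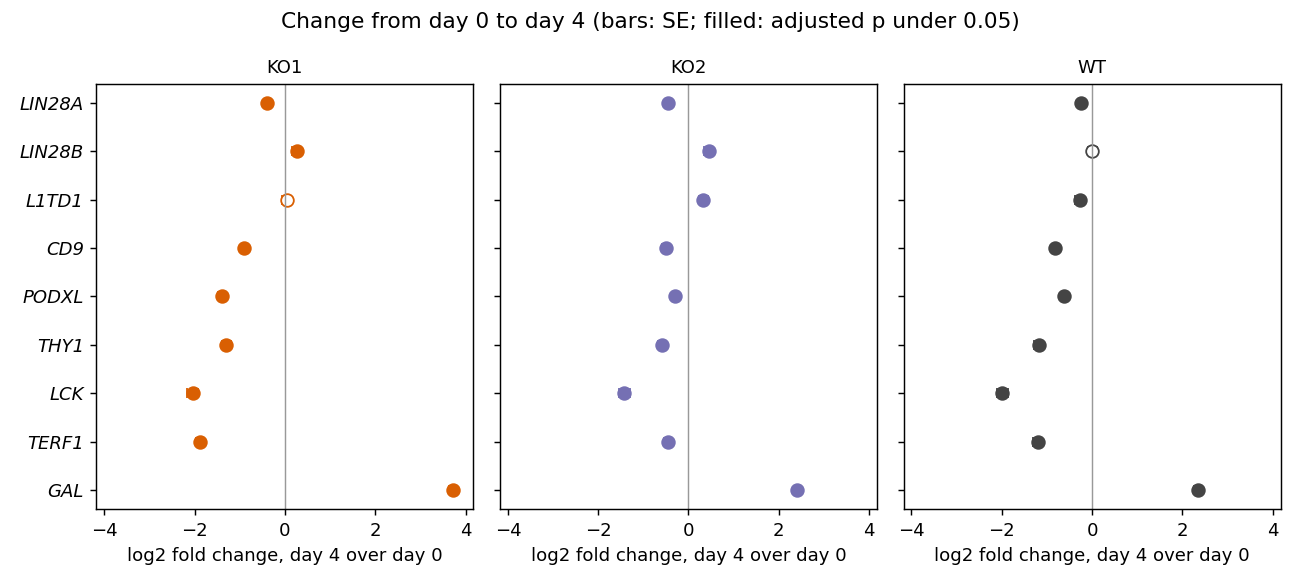
Log2 fold change of each gene at day 4 over day 0 in KO1, KO2 and WT, with bars for the SE (many are smaller than the symbol) and filled symbols for an adjusted p under 0.05. GAL lies far to the right in all 3 lines, at 3.71 in KO1, 2.41 in KO2 and 2.35 in WT, and the points of CD9, THY1, LCK, TERF1 and PODXL lie nearest to 0 in KO2.

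**Figure D2:**
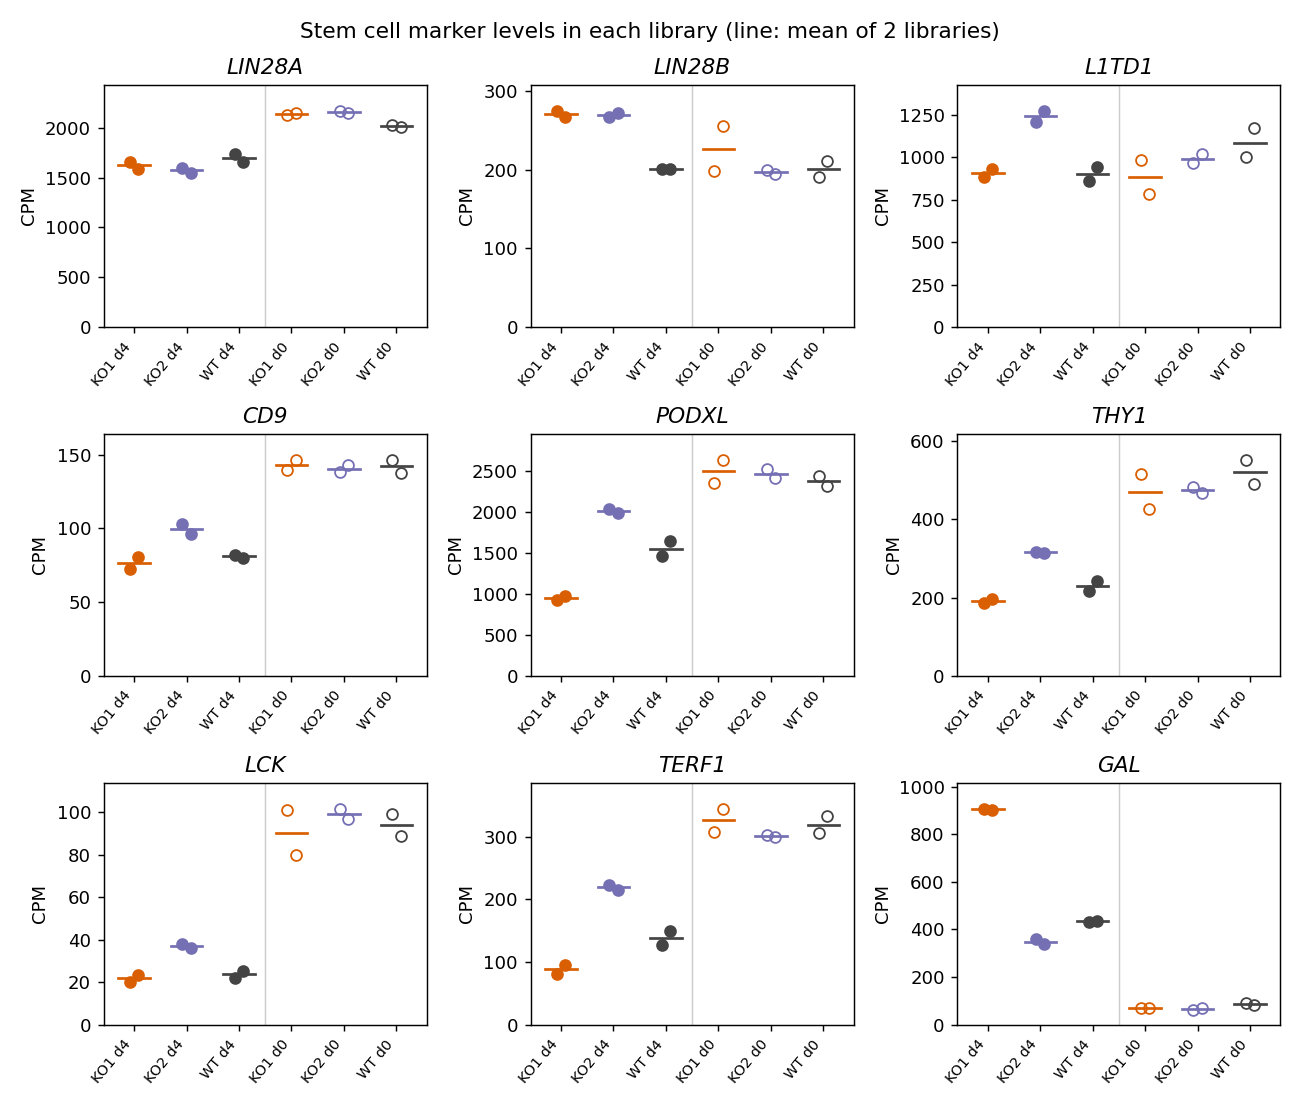
CPM of each gene in the 12 libraries, with day 4 groups (filled) left of day 0 groups (open), a line at the mean of the 2 libraries of a group and a separate vertical axis from 0 for every gene. At day 4, KO2 lies above KO1 and WT for L1TD1, CD9, PODXL, THY1, LCK and TERF1, and KO1 lies above the others for GAL.

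LIN28A, the form known from the cytoplasm, kept most of its level. It measured 1658 and 1590.1 CPM in KO1 day 4, 1598 and 1546 CPM in KO2 day 4 and 1739.9 and 1654 CPM in WT day 4. It measured 2124 and 2147 CPM in KO1 day 0, 2169 and 2144 CPM in KO2 day 0 and 2027 and 2005 CPM in WT day 0. Every day 4 library was below every day 0 library, while the 3 lines lay close together within each day. The log2 fold change over the 4 days was -0.40 in KO1 (SE 0.06, adjusted p = 6.893e-05), -0.46 in KO2 (SE 0.06, adjusted p = 2.817e-05) and -0.25 in WT (SE 0.06, adjusted p = 0.003908). At day 4 the difference from WT was -0.06 in KO1, with a 95% interval of -0.20 to 0.07, and -0.11 in KO2, with an interval of -0.24 to 0.02. Neither passed, and LIN28A was the only one of the 9 that was called against WT in neither clone and not between the clones either.

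LIN28B, the paralog known from the nucleolus, did not follow LIN28A. Its levels were 275 and 267 CPM in KO1 day 4, 266 and 272 CPM in KO2 day 4 and 201 in both WT day 4 libraries. They were 198 and 255 CPM in KO1 day 0, 199.8 and 195 CPM in KO2 day 0 and 191 and 210.4 CPM in WT day 0. The 4 clone libraries of day 4 were thus above all 8 others, and the WT libraries of both days overlapped. At day 4, LIN28B exceeded WT by log2 0.43 in KO1 (SE 0.10, adjusted p = 0.006311) and 0.42 in KO2 (SE 0.10, adjusted p = 0.00476). It was the only one of the 9 called in the same direction in both clones. Both comparisons use the same WT day 4 libraries and so are not independent. How many of all features were called in the same direction in both was not counted. KO1 lost its call without WT day 4 replicate 1 (adjusted p = 0.05691) or KO1 day 4 replicate 1 (0.06437), and KO2 without WT day 4 replicate 1 (0.05118). Between KO2 and KO1 at day 4 the difference was -0.01, with a 95% interval of -0.21 to 0.20.

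Over the 4 days LIN28B rose by log2 0.26 in KO1 (SE 0.10, adjusted p = 0.03211) and 0.45 in KO2 (SE 0.10, adjusted p = 0.00142), against 0.01 in WT (adjusted p = 0.9708). The KO1 rise depends on the day 0 pair that stood apart. It was 0.45 without KO1 day 0 replicate 2 and 0.09 (adjusted p = 0.298) without KO1 day 0 replicate 1, and it was also lost without KO1 day 4 replicate 1 (0.1319), without KO1 day 4 replicate 2 (0.08101), with upper-quartile factors (0.1493) and with only the libraries compared (0.1421). In KO2 the change exceeded that of WT by 0.44 (SE 0.14, adjusted p = 0.04446), a call lost in 10 of 18 alternative fits, with upper-quartile factors (adjusted p = 0.05291) and without WT day 0 replicate 2, either KO2 day 0 library or any 1 of the 6 day 4 libraries (adjusted p up to 0.1736).

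The balance of the 2 paralogs can be read within a library, where scaling cancels. LIN28B counts per LIN28A count were 0.166 and 0.168 in KO1 day 4, 0.167 and 0.176 in KO2 day 4 and 0.116 and 0.122 in WT day 4. At day 0 they were 0.0932 and 0.119 in KO1, 0.0921 and 0.0908 in KO2 and 0.0940 and 0.105 in WT. The clones at day 4 lay above every other library. The fitted ratio was 1.41-fold higher in KO1 and 1.44-fold higher in KO2 than in WT at day 4, and 1.57-fold, 1.87-fold and 1.19-fold higher at day 4 than at day 0 in KO1, KO2 and WT. Without KO1 day 0 replicate 1 the KO1 ratio was 1.40-fold higher, and without replicate 2 it was 1.79-fold higher. No test was made of this ratio, and it is not corrected for transcript length, so it says nothing on which paralog is more abundant.

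**Figure D3:**
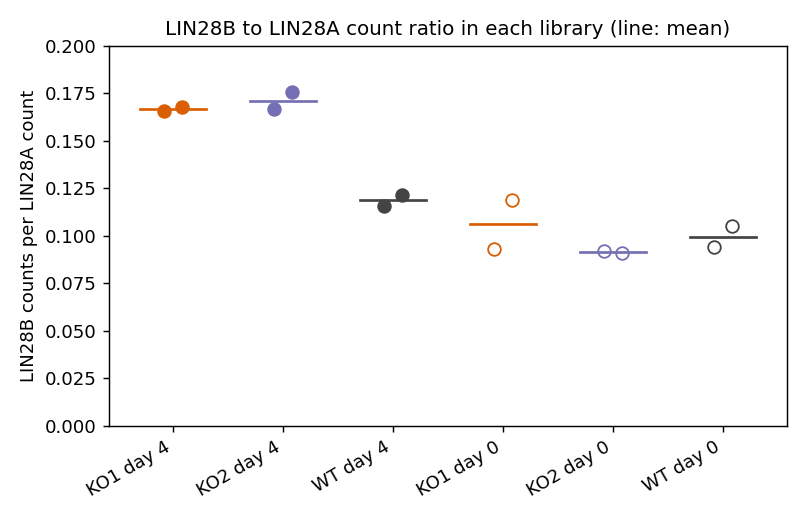
LIN28B counts divided by LIN28A counts in each of the 12 libraries, with a line at the mean of the 2 libraries of a group and the axis starting at 0. The 4 clone libraries of day 4 lie between 0.166 and 0.176, above the WT day 4 libraries at 0.116 and 0.122 and all day 0 libraries.

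L1TD1 moved differently in each line. It had 885 and 932 CPM in KO1 day 4, 1209 and 1275 CPM in KO2 day 4 and 859 and 944 CPM in WT day 4, against 984 and 784 CPM in KO1 day 0, 966 and 1018 CPM in KO2 day 0 and 1004 and 1172 CPM in WT day 0. The KO2 day 4 libraries were the highest of the 12. Its change over 4 days was 0.04 in KO1 (adjusted p = 0.7507, or 0.21 with 0.02691 without KO1 day 0 replicate 1), 0.32 in KO2 (SE 0.10, adjusted p = 0.01417) and -0.27 in WT (SE 0.10, adjusted p = 0.03456). The WT call was lost without WT day 0 replicate 2 (0.3105), WT day 4 replicate 1 (0.2528), KO2 day 0 replicate 1 (0.05816) or KO1 day 4 replicate 1 (0.05305), and the KO2 call without KO2 day 0 replicate 1 (0.09965) or KO2 day 4 replicate 2 (0.09372). At day 4, L1TD1 was higher in KO2 than in WT by 0.46 (SE 0.10, adjusted p = 0.003061) and than in KO1 by 0.45 (SE 0.10, adjusted p = 0.003873), while KO1 and WT differed by 0.01, with a 95% interval of -0.20 to 0.23. The KO2 calls were lost without WT day 4 replicate 1 (0.06174) against WT and without KO1 day 4 replicate 1 (0.05609) against KO1.

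CD9, which organises membrane microdomains with integrins, fell in all 3 lines. It measured 72.2 and 80.4 CPM in KO1 day 4, 103 and 96.2 CPM in KO2 day 4 and 82.0 and 79.8 CPM in WT day 4, against 139 and 146 CPM in KO1 day 0, 138 and 143 CPM in KO2 day 0 and 147 and 137 CPM in WT day 0. Day 4 and day 0 libraries did not overlap, and the KO2 day 4 libraries were the highest of day 4. The log2 fold changes over the 4 days were -0.90 in KO1 (SE 0.08), -0.50 in KO2 (SE 0.08) and -0.81 in WT (SE 0.08), with adjusted p of 1.739e-07, 0.000116 and 8.121e-07. At day 4 it was higher in KO2 than in WT by 0.30 (SE 0.08, adjusted p = 0.01245), a call lost without WT day 4 replicate 1 (0.06972), WT day 4 replicate 2 (0.079) or KO2 day 4 replicate 1 (0.1151). Against KO1 it was higher in KO2 by 0.38 (adjusted p = 0.002902, or 0.06465 without KO1 day 4 replicate 1).

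THY1 fell in all 3 lines. It had 186 and 197 CPM in KO1 day 4, 317 and 315 CPM in KO2 day 4 and 216 and 242 CPM in WT day 4, against 516 and 426 CPM in KO1 day 0, 483 and 467 CPM in KO2 day 0 and 553 and 490.0 CPM in WT day 0. The 3 lines did not overlap at day 4, with KO1 lowest and KO2 highest. Changes over 4 days were -1.30 in KO1 (SE 0.10, adjusted p = 1.967e-08), -0.59 in KO2 (SE 0.09, adjusted p = 0.0001049) and -1.18 in WT (SE 0.09, adjusted p = 7.663e-08). At day 4, KO2 was higher than WT by 0.46 (SE 0.09, adjusted p = 0.001942) and than KO1 by 0.72 (SE 0.09, adjusted p = 4.945e-05), and KO1 differed from WT by -0.26 (SE 0.09, adjusted p = 0.06567), which passed in 5 of 18 alternative fits, among them those without KO1 day 0 replicate 1 (0.004508) or replicate 2 (0.004496). THY1 is also known from fibroblasts. At day 4, 8 other fibroblast markers summed to 306 to 363 CPM in KO1 and 205 to 208 CPM in WT. In KO2 day 4 the sum was 167 to 172 CPM, and at day 0 it was 336 to 381 CPM. Of 6 tested markers, 3 were higher and 0 lower in KO1 than in WT at day 4, where 10.5% of all features were higher and 9.42% lower. In KO2, 1 was higher, 1 lower and 4 were not called, where 13.5% of all features were higher and 14.5% lower. The part of these markers in the THY1 values was not tested.

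PODXL separated the clones. It measured 926 and 980.1 CPM in KO1 day 4, 2042 and 1988 CPM in KO2 day 4 and 1460.4 and 1651 CPM in WT day 4, against 2363 and 2643 CPM in KO1 day 0, 2529.7 and 2418 CPM in KO2 day 0 and 2442 and 2324 CPM in WT day 0. KO1 was thus lowest, WT in the middle and KO2 highest at day 4, with no overlap, whereas the lines overlapped at day 0. The falls over 4 days were -1.39 in KO1 (SE 0.08, adjusted p = 1.277e-09), -0.30 in KO2 (SE 0.08, adjusted p = 0.005262, or 0.05186 without KO2 day 0 replicate 1) and -0.61 in WT (SE 0.08, adjusted p = 1.038e-05). At day 4, PODXL was lower in KO1 than in WT by log2 -0.71 (SE 0.08, adjusted p = 1.924e-05) and higher in KO2 than in WT by 0.37 (SE 0.08, adjusted p = 0.002317, or 0.06202 without WT day 4 replicate 1).

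LCK had the largest fall of the 9 in each line. In KO1 this order depended on the day 0 pair, as TERF1 fell more (-1.96) than LCK (-1.86) without KO1 day 0 replicate 1. Its levels were 20.2 and 23.4 CPM in KO1 day 4, 37.8 and 36.3 CPM in KO2 day 4 and 22.1 and 25.0 CPM in WT day 4, against 101 and 79.7 CPM in KO1 day 0, 102 and 96.6 CPM in KO2 day 0 and 99.4 and 88.9 CPM in WT day 0. Every day 0 library was far above every day 4 library, and KO1 and WT overlapped at day 4 while KO2 was above both. The log2 fold changes over 4 days were -2.04 in KO1 (SE 0.12, adjusted p = 2.23e-09), -1.42 in KO2 (SE 0.12, adjusted p = 1.693e-07) and -1.99 in WT (SE 0.12, adjusted p = 3.892e-09). At day 4, LCK was higher in KO2 than in WT by 0.65 (SE 0.13, adjusted p = 0.001314) and than in KO1 by 0.76 (SE 0.13, adjusted p = 0.0004334).

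LCK is a T cell kinase in textbooks, so T cell markers were read beside it. Of 9 markers, CD3G and CD2 were at 0 in all 6 groups and CD3E was at 0 in all groups but WT day 0. The 9 summed to 2.93 to 3.51 CPM in KO1 day 4, 1.93 to 2.21 CPM in KO2 day 4 and 2.75 to 2.96 CPM in WT day 4, against 13.2 to 17.8 CPM in KO1 day 0, 16.45 to 16.8 CPM in KO2 day 0 and 11.5 to 13.5 CPM in WT day 0. Most of the day 0 sum was CD4, with 1.07 ± 0.424 CPM in WT day 4 and 11.3 ± 1.43 CPM in WT day 0 (SD, n = 2 each). The part of these markers in the LCK values was not tested.

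The annotation places 2 starts of LCK 22856 bases apart, and counts per gene do not tell their transcripts apart. Both windows, 250 bases before to 50 after the start in the RefSeq table (GRCh38.p14, plus strand), are printed because LCK fell the most in WT. Matches to CAGAC, the short motif known to bind SMAD proteins, are in capitals on either strand (GTCTG on the minus strand). The first window, chr1:32251015-32251314, held 2 matches and the second, chr1:32273871-32274170, held 1.
LCK start 1: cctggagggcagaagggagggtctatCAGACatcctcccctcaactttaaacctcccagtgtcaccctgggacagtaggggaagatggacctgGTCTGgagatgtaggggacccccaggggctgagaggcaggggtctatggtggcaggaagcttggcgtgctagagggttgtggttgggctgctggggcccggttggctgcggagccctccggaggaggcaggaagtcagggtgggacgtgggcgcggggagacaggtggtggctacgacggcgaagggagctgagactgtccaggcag
LCK start 2: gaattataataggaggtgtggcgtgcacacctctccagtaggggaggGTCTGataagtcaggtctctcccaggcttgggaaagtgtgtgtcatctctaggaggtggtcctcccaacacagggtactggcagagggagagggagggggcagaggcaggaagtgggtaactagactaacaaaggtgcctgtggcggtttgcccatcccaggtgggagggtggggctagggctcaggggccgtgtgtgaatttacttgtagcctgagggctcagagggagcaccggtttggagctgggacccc
Windows were matched for 4 of the 9 genes, LIN28B, L1TD1, CD9 and LCK, with 9 windows in all. CAGAC was in 7 of these 9 and in 45.3% of 35116 windows of the table, and ATGCAAAT, the octamer bound by OCT4, was in 0 of 9 and in 1.77% of all windows. These letters are a description and not sites of measured binding.

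GAL rose in every line and set KO1 apart. It had 907 and 901 CPM in KO1 day 4, 358 and 336 CPM in KO2 day 4 and 430.3 and 436 CPM in WT day 4, against 68.0 and 70.1 CPM in KO1 day 0, 62.6 and 67.8 CPM in KO2 day 0 and 90.6 and 80.1 CPM in WT day 0. All 6 groups were free of overlap, and the highest group mean was 13.9-fold the lowest, the widest range of the 9 genes. The log2 fold changes over 4 days were 3.71 in KO1 (SE 0.08, adjusted p = 9.425e-14), 2.41 in KO2 (SE 0.08, adjusted p = 1.367e-11) and 2.35 in WT (SE 0.08, adjusted p = 6.356e-12). At day 4, GAL was higher in KO1 than in WT by 1.06 (SE 0.07, adjusted p = 1.678e-07) and lower in KO2 than in WT by log2 -0.32 (SE 0.07, adjusted p = 0.004822, or 0.07497 without KO2 day 4 replicate 2). Markers of neurons and neuroendocrine cells, where galanin is best known, summed over 9 genes to 510 to 553 CPM in KO1 day 4, 431 to 435 CPM in KO2 day 4 and 451 to 490 CPM in WT day 4, and to 320 to 496 CPM at day 0. Of these 9 markers, 1 rose and 5 fell in WT over the 4 days, where 24.3% of all features were higher and 25.4% lower. At day 4, 0 were higher and 1 lower in KO1 than in WT, where 10.5% of all features were higher and 9.42% lower. In KO2, 2 were higher and 1 lower, where 13.5% of all features were higher and 14.5% lower. The part of these markers in the GAL values was not tested.

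TERF1 showed the same order of lines as PODXL. It measured 81.3 and 95.6 CPM in KO1 day 4, 223 and 215 CPM in KO2 day 4 and 127 and 149 CPM in WT day 4, against 307 and 345 CPM in KO1 day 0, 302 and 299 CPM in KO2 day 0 and 306 and 333 CPM in WT day 0. The lines did not overlap at day 4, where KO2 had more than 2 times the level of KO1. The changes over 4 days were -1.88 in KO1 (SE 0.10, adjusted p = 5.366e-10), -0.46 in KO2 (SE 0.09, adjusted p = 0.0009559) and -1.21 in WT (SE 0.10, adjusted p = 7.172e-08). At day 4, TERF1 was lower in KO1 than in WT by log2 -0.64 (SE 0.10, adjusted p = 0.0003495) and higher in KO2 than in WT by 0.66 (SE 0.10, adjusted p = 0.0001215).

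The second comparison sets each clone against WT at day 4. In KO1, GAL and LIN28B were higher, TERF1 and PODXL were lower and 5 of the 9 did not pass, where 10.5% of all features were called higher and 9.42% lower. In KO2, 7 of the 9 were higher, GAL was lower and LIN28A did not pass, where 13.5% of all features were higher and 14.5% lower. The median log2 fold change of the 9 was -0.08 in KO1 and 0.42 in KO2, and that of all features was 0.01 in both. Several of the KO2 calls depend on single libraries. Without WT day 4 replicate 1, THY1, LCK and TERF1 stayed higher, and LIN28B (0.40), L1TD1 (0.38), CD9 (0.30) and PODXL (0.27) no longer passed. CD9 was also lost without WT day 4 replicate 2 (0.28) or KO2 day 4 replicate 1 (0.25), and GAL without KO2 day 4 replicate 2 (-0.28).

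Markers of both cell states were read beside these values. In KO2, 8 of 8 endoderm markers were lower and 6 of 7 pluripotent cell markers were higher than in WT at day 4, with 1 lower. Not all of these 7 fell with differentiation. In WT, 5 fell and 2 rose over the 4 days, where 25.4% of all features were lower and 24.3% higher. In KO1, 3 of 8 endoderm markers were lower (2 to 4 with 1 library left out) and 0 higher (1 without WT day 4 replicate 1), and 1 pluripotent cell marker was higher and 1 lower, or 3 lower without either KO1 day 0 library and 0 lower without either WT day 4 library or KO1 day 4 replicate 1. In KO2 the 1 lower marker was lost without WT day 4 replicate 1 or either KO2 day 4 library. SOX2 differed by -0.52 in KO1 and 0.58 in KO2, and ZFP42 by 0.77 in KO1 and 0.91 in KO2. Their part in the values of the 9 genes was not tested. The mean of both clones, with equal weight, was above WT at day 4 for LIN28B (0.42, adjusted p = 0.002185) and GAL (0.37, adjusted p = 0.0007482). The other 7 of 9 did not pass, where 11.3% of features were higher and 12.6% lower. With only the libraries compared, L1TD1 (0.22, adjusted p = 0.001146) and LCK (0.25, adjusted p = 0.02649) passed as higher. PODXL passed as lower there (-0.18, adjusted p = 0.006258). Without either 1 of the KO1 day 0 libraries, the differences were 0.24 for L1TD1, 0.27 for LCK and -0.17 for PODXL. For GAL, PODXL and TERF1 this mean joins clones that lay on opposite sides of WT. With the 4 clone libraries as 1 group, GAL was not called (0.53, adjusted p = 0.3958).

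**Figure D4:**
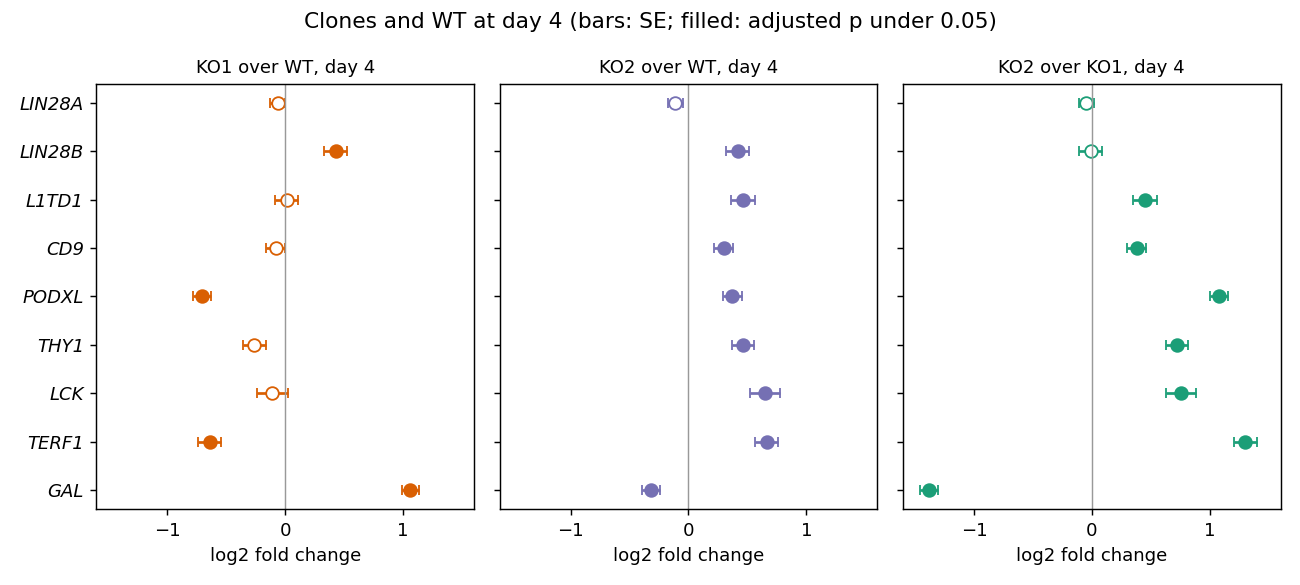
Log2 fold change at day 4 of KO1 over WT, KO2 over WT and KO2 over KO1 for each gene, with bars for the SE and filled symbols for an adjusted p under 0.05. TERF1 and PODXL lie left of 0 in KO1 and right of 0 in KO2, GAL does the opposite, and LIN28B lies near 0.4 in both clones.

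Directly against each other at day 4, KO2 was higher than KO1 in 6 of the 9, lower in GAL and not different past the threshold in LIN28A and LIN28B, where 10.8% of all features were higher and 14.3% lower. The differences reached 1.30 for TERF1 (SE 0.10, adjusted p = 1.696e-07), 1.08 for PODXL (SE 0.08, adjusted p = 1.227e-07) and -1.38 for GAL (SE 0.08, adjusted p = 1.08e-08).

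Whether the change over 4 days itself differed from that of WT was tested for each clone. In KO1 the rise of GAL exceeded that of WT by 1.37, and the falls of TERF1 and PODXL were steeper by -0.67 and -0.78, with 6 of 9 not passing, where 4.99% of features were higher and 4.81% lower. The TERF1 call was lost without KO1 day 4 replicate 1 (adjusted p = 0.05089). LIN28B passed without KO1 day 0 replicate 2 (0.45, adjusted p = 0.0022) and L1TD1 without KO1 day 0 replicate 1 (adjusted p = 0.001507). In KO2 the change lay above that of WT for LIN28B, L1TD1, THY1, LCK and TERF1, by 0.44 to 0.75, where 6.37% of features were higher and 7.50% lower. CD9 and PODXL differed by 0.31 (adjusted p = 0.08152) and 0.32 (adjusted p = 0.06732), and GAL by 0.07 (adjusted p = 0.737). Without either KO1 day 0 library, the change in KO2 minus that in WT was 0.31 for CD9, 0.32 for PODXL and -0.21 for LIN28A. For PODXL it was 0.41 without WT day 4 replicate 2. How many of all features were called with a library left out was not counted. Counts from such fits are therefore not to be read against the 6.37% and 7.50%. Leaving out 1 library left 1 to 7 of the 9 called higher and 0 to 1 called lower in KO2, and TERF1 was called in all 18 alternative fits. THY1 was lost without WT day 4 replicate 1 (adjusted p = 0.05556). L1TD1 was lost without WT day 0 replicate 2, KO2 day 0 replicate 1, WT day 4 replicate 1 or KO2 day 4 replicate 2 (adjusted p of 0.05924 to 0.07434), and LCK without any 1 of the 7 KO2 and WT libraries other than WT day 4 replicate 2 (adjusted p of 0.05156 to 0.1663).

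At day 0 none of the 9 was called in any of the 4 comparisons by edgeR's quasi-likelihood test. That test called 0.238% of all features in KO1 against WT. There, 2 of the 9 and 1638 of all 16792 features had an unadjusted p under 0.05. DESeq2 called 0 of the 9 and 60 of all features. In KO2 against WT, 0.143% were called, and these counts were 1 and 1 of the 9, beside 791 and 38 of all features. For the mean of the clones, 0.280% were called, and the counts were 2 and 1, beside 1251 and 70. For KO2 against KO1, 0.0119% were called, and the counts were 0 and 0, beside 648 and 2. GAL came closest, with -0.30 in KO1 (adjusted p = 0.1986), -0.39 in KO2 (adjusted p = 0.1123) and -0.34 in the mean of the clones (adjusted p = 0.05429), its 4 clone libraries all below both WT libraries. Without KO1 day 0 replicate 1, the pair is represented by the library that stood apart. KO1 then differed from WT by 0.34 for LIN28B, -0.47 for L1TD1, -0.29 for THY1 and -0.28 for GAL. Without KO1 day 0 replicate 2, LIN28B differed by -0.02. Without either KO1 day 0 library, GAL passed as lower in KO2 than in WT (adjusted p = 0.008244 and 0.008313) and in the mean of the clones (0.002337 and 0.006926), and without replicate 1 L1TD1 (0.002845) and THY1 (0.0266) also passed in that mean. In KO2 against KO1, the same exclusion of replicate 1 gave -0.37 for LIN28B, 0.34 for L1TD1 and 0.31 for LCK. How many of all features were called in these left-out fits was not counted, so their calls cannot be set against the shares above.

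Ordered by group means, LIN28A ran from 1572 CPM in KO2 day 4 to 2157 CPM in KO2 day 0, a 1.37-fold range, and its day 4 neighbours overlapped. LIN28B had the same 1.37-fold range and L1TD1 1.41-fold. The range was 1.87-fold for CD9, 2.63-fold for PODXL, 2.73-fold for THY1, 3.69-fold for TERF1 and 4.55-fold for LCK. For CD9, THY1, LCK, TERF1 and PODXL the order at day 4 was KO1, WT, KO2 from low to high, with KO1 and WT overlapping in CD9 and LCK.

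Lists of related genes were read beside the 9, with the WT change first, and the genes named kept their call in all alternatives tried. Counts in WT are to be read against the 24.3% of all tested features that were higher and the 25.4% that were lower, and several lists lie near these shares. Of 10 tested genes that process let-7, 2 rose in WT and none fell: DGCR8, the partner of DROSHA (0.87, SE 0.11, adjusted p = 1.45e-05), and ZCCHC11 (0.42, SE 0.08, adjusted p = 0.0003708). Of 15 let-7 targets, 5 rose and 3 fell, among them MYCN (-1.89) and IGF2BP3 (-1.38), a growth-linked transcription factor and an RNA-binding protein. The 5 became 1 when WT day 4 replicate 1 was left out, 2 when it was WT day 0 replicate 1, and 3 without WT day 0 replicate 2, KO1 day 4 replicate 2 or either KO2 day 4 library. The median of the targets was 0.07. Of 24 tested tetraspanins and CD9 partners, 11 rose and 7 fell. CD82, another tetraspanin, fell with CD9 (-2.53), as did the laminin-binding integrin subunit ITGA6 (-1.90), while PTGFRN, a direct CD9 partner, and TSPAN18 rose (1.27 and 1.24). Of 13 GPI-anchored proteins, 6 rose and 6 fell, with CNTN1 (-2.80) and GPC3 (-1.96) down as THY1 was, and GPC6 (1.90) and LYPD1 (1.64) up.

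Of 7 relatives and linkers of podocalyxin, 4 rose (2 without WT day 0 replicate 2) and 2 fell (1 without WT day 4 replicate 1 or either WT day 0 library). Its paralog PODXL2 fell (-0.77) and the membrane-cytoskeleton linker RDX rose (0.49). Of 12 SRC-family kinases and regulators, 3 rose and 2 fell, or 4 fell without either 1 of the KO1 day 0 libraries. PAG1, an adaptor that recruits the inhibitory kinase CSK, rose (4.60, against 11 counts in the WT day 0 libraries together), SRC rose (0.62), and LYN (-0.96) fell with LCK. Of 10 tested neuropeptide genes, 3 rose and 4 fell. Neurotensin (NTS) rose with GAL (3.59), and tachykinin TAC3 fell (-3.55). The galanin receptor genes GALR1, GALR2 and GALR3 had 0 to 17 counts per group and did not pass the filter. Of 16 tested shelterin and telomerase genes, 3 rose (1 without WT day 4 replicate 1) and 4 fell (1 without WT day 0 replicate 1 or WT day 4 replicate 1, 2 without WT day 4 replicate 2). TERT, the catalytic subunit of telomerase, fell with TERF1 (-1.58, SE 0.14, adjusted p = 1.602e-07) and the shelterin subunit TERF2IP rose (0.72). Of 20 tested other genes of a stem cell marker panel, 11 rose and 5 fell, led by LEFTY1 (7.33) and LEFTY2 (6.84), close paralogs that may share reads, and by EDNRB (-1.78) and SFRP2 (-1.24).

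The same lists were read at day 4 against WT, where 10.5% of all features were higher and 9.42% lower in KO1, and 13.5% were higher and 14.5% lower in KO2. Many of the counts that follow lie near these shares, and with so few genes a list nothing is read from a count as such. Let-7 targets had 4 of 15 higher and 0 lower in KO1, and 6 higher and 0 lower in KO2. MYC was higher in both clones (0.68 in KO1 and 0.81 in KO2), at 166 ± 8.39 CPM in KO1 day 4, 182 ± 10.1 CPM in KO2 day 4 and 103 ± 13.7 CPM in WT day 4 (SD, n = 2 each). CDC25A was higher in KO1 (0.57) and the cyclin CCND1 in KO2 (1.13). Among let-7 processing genes 1 was higher and 1 lower in KO1, and 2 were higher and 1 lower in KO2, where the exportin XPO5 was higher (0.43) and ZCCHC11 lower (-0.40). Of the tetraspanins and partners, 3 were higher and 4 lower in KO1, and 3 higher and 5 lower in KO2. ITGA6 was higher in both (0.55 in KO1 and 0.66 in KO2), TSPAN4 was lower in KO1 (-0.79) and TSPAN14 lower in KO2 (-0.64). GPI-anchored proteins had 2 higher and 2 lower in KO1, with LYPD1 (1.02) and PRNP (0.64) higher. In KO2 they had 4 higher and 3 lower, with GPC3 (0.86) higher and ALPL (-0.58) and GPC1 (-0.61) lower.

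Relatives of podocalyxin had 1 higher and 1 lower in KO1, RDX (0.41) and PODXL2 (-0.74), and 1 higher and 2 lower in KO2, where SLC9A3R1 (-0.79) and MSN (-0.39) were lower. SRC-family genes had 2 higher and 1 lower in KO1, and 3 higher and 4 lower in KO2, with LYN higher (0.62) and SRC (-0.67) and PAG1 (-1.19) lower there. Neuropeptide genes had 4 higher and 1 lower in KO1, with GRP higher (2.15), and 3 higher and 1 lower in KO2, with NPY higher (1.79) and NMU lower (-1.25). Shelterin and telomerase genes had 3 higher and 0 lower in KO1, and 4 higher and 2 lower in KO2, with TERT (0.87) and the telomerase RNA-binding protein DKC1 (0.66) higher. Panel genes, of which DNMT3B is also a pluripotent cell marker, had 3 higher and 6 lower in KO1, with FGF4 higher (1.85) and LEFTY2 lower (-2.01), and 6 higher and 7 lower in KO2, with DNMT3B higher (0.60) and LIFR lower (-1.75).

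Many of these small counts hang on single libraries. In KO1, leaving out any 1 of the 4 day 4 libraries of KO1 and WT brought the higher shelterin genes to 0 or 1, the higher SRC-family genes to 0 or 1 and the lower SRC-family gene to 0. The let-7 processing genes of KO1 ranged from 0 to 2 each way, the lower GPI-anchored proteins from 0 to 3, and the higher neuropeptide genes came to 2 without KO1 day 4 replicate 1. The lower neuropeptide gene was lost without WT day 4 replicate 2 or KO1 day 4 replicate 2, and lower tetraspanins came to 2 without KO1 day 4 replicate 2. Without either KO1 day 0 library, the lower tetraspanins of KO1 came to 7, the higher GPI-anchored proteins to 4, the lower shelterin genes to 2 and the lower podocalyxin relatives to 2. In KO2, the same 2 exclusions brought the higher let-7 processing genes and the lower shelterin genes to 4, the higher podocalyxin relatives to 2 and the lower let-7 targets to 1. Leaving out a day 4 library of KO2 or WT brought the lower shelterin genes of KO2 to 0 or 1, the higher SRC-family genes to 1 (also without KO2 day 0 replicate 1) and the higher podocalyxin relative to 0. The lower SRC-family genes came to 2 without WT day 4 replicate 2 or either KO2 day 4 library, the higher neuropeptide genes to 1 without either WT day 4 library or KO2 day 4 replicate 2, and the higher GPI-anchored proteins to 1 without KO2 day 4 replicate 2. Lower tetraspanins of KO2 came to 2 or 3 without WT day 4 replicate 1 or either KO2 day 4 library. The let-7 targets higher in the clones stayed between 4 and 5 in KO1 and between 5 and 7 in KO2 when any 1 library was left out.

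For each of the 9 genes, the 3 other genes with the most similar profile over the 12 libraries were taken, by Pearson's r of log2 CPM among 11779 named features with a mean of at least 5 CPM. The 6 libraries of each day form separate clusters, so a high r mostly describes the difference between days, and it carries no test. LCK was nearest to FHOD3, ZDHHC22 and PHLDB1 (r = 0.998, 0.998 and 0.997), CD9 to TTYH1, PHC1 and SAMHD1 (0.995, 0.994 and 0.992) and THY1 to USP44, SCAMP5 and GLB1L3 (0.993, 0.993 and 0.992). TERF1 was nearest to CHEK2, TBC1D8 and TERT (0.997, 0.992 and 0.985), and PODXL to CREB3L4 and TERF1, among others (0.988 and 0.982). GAL was nearest to RYK, SPATS2L and TES (0.995, 0.994 and 0.994), and LIN28A to MADD, PIK3CD and NR6A1 (0.994, 0.994 and 0.992). LIN28B and L1TD1, which were not called in the same direction over the 4 days in all 3 lines, had few such neighbours. Nearest to LIN28B were ZNF138, RNF138 and its pseudogene RNF138P1, which may share reads (0.972, 0.969 and 0.967). Nearest to L1TD1 were NAA15, PAK1IP1 and ATP5F1 (0.982, 0.967 and 0.957).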

How the data were processed

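RNA sequencing libraries were made from poly(A) RNA with a stranded kit, per the labels' protocols. The deposited values are raw counts per feature, which the authors made from hg19 alignments (the submitters' processing notes name Bowtie2 2.1.0 and HTSeq 0.6.1). No annotation, strand setting or mapping quality minimum is given in the sources read for this, so reads of overlapping antisense genes (LIN28B-AS1 for LIN28B, USP2-AS1 for THY1) cannot be told apart from those of the gene, and pseudogene copies of LIN28A, L1TD1 and TERF1 may take reads. Reads outside any feature came to 29.2% to 30.5% of a library. Reads set aside for low alignment quality came to 20.7% to 22.2% at day 0 and 19.3% to 19.9% at day 4. Some minimum was therefore in force, although its value is not known.

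Counts were scaled with TMM factors and fitted with edgeR 4.0.16 (R 4.3.3, limma 3.58.1) in 1 model of 6 groups over the 12 libraries (6 residual degrees of freedom). Features were filtered with filterByExpr by group, leaving 16792 of 54435, and p-values were adjusted over all of them. SE was taken from the log2 fold change and the F statistic. Total counts of 9942016 to 21394547 set the precision, and the floor of 3 counts covers counting error only. A prior count of 2 was used for log2 CPM in profiles.

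The 9 genes and all lists were chosen with earlier results of these data known. Named are all 9 in every comparison, the 2 called genes with the largest change each way of each list in 3 comparisons (of these, only some whose call held in all alternatives, a restriction added after seeing values), pluripotent cell and endoderm markers as a check of the cells (SOX2, ZFP42 and CD4 were singled out after their values were seen), and the 3 nearest profiles of each gene. A few genes that this rule selects are not reported here. Alternatives were other scaling factors, no filter, DESeq2 1.42.0, a replicate block, only the libraries compared, the 4 clone libraries as 1 group and each library left out, and the script was tested on simulated data. Their use for the lists, and left-out libraries for the LIN28B to LIN28A ratio, were added after seeing the data. The 8 ChIP-seq samples are not analysed here. Figures were drawn with matplotlib 3.10.9.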

Additional observations from a re-analysis of the deposited data

Results flagged for a closer look

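The change over 4 days differed between a clone and WT by edgeR's test of the difference itself in 8 cases, given as the log2 change of the clone minus that of WT. In KO1 the value was 1.37 for GAL (SE 0.11, adjusted p = 3.295e-06), -0.67 for TERF1 (SE 0.14, adjusted p = 0.006543) and -0.78 for PODXL (SE 0.11, adjusted p = 0.0005483). In KO2 it was 0.44 for LIN28B (SE 0.14, adjusted p = 0.04446), 0.60 for L1TD1 (SE 0.14, adjusted p = 0.01132), 0.60 for THY1 (SE 0.13, adjusted p = 0.007624), 0.57 for LCK (SE 0.17, adjusted p = 0.03386) and 0.75 for TERF1 (SE 0.13, adjusted p = 0.001751). TERF1 had opposite signs in the clones. In KO1 the 3 values stayed called without either KO1 day 0 library, at 1.34 to 1.39 for GAL, -0.75 to -0.59 for TERF1 and -0.86 to -0.69 for PODXL.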

How the results depend on the processing

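With upper-quartile factors the sign turned for LIN28B in the WT change (-0.0479), L1TD1 in the KO1 change (-0.0413), L1TD1 in KO1 against WT at day 4 (-0.0145), TERF1 in the clone mean at day 4 (-0.00752) and LIN28B in KO2 against KO1 at day 4 (0.00929), which without a filter was 6.48e-06. With only the libraries compared it turned for L1TD1 in KO1 against WT (-0.00499) and TERF1 in the clone mean (-0.00427) at day 4. None of these had passed, and the cause was not tested.

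Leaving out 1 library gave ranges across 0 for values near 0. In the mean of the clones against WT these were -0.0493 to 0.0435 for CD9, -0.0789 to 0.0903 for LCK, -0.0229 to 0.159 for LIN28B and -0.0887 to 0.0339 for TERF1 at day 0, and -0.112 to 0.128 for TERF1 at day 4. In KO1 against WT they were -0.0377 to 0.0552 for CD9, -0.236 to 0.102 for LCK, -0.0201 to 0.344 for LIN28B, -0.0123 to 0.150 for PODXL and -0.0563 to 0.110 for TERF1 at day 0, and -0.0653 to 0.0815 for L1TD1 at day 4. In KO2 against WT at day 0 they were -0.0610 to 0.0318 for CD9, -0.00316 to 0.157 for LCK and -0.0934 to 0.0494 for LIN28B. In KO2 against KO1 they were -0.0564 to 0.0108 for CD9, -0.0236 to 0.315 for LCK, -0.0954 to 0.0664 for PODXL and -0.119 to 0.160 for THY1 at day 0, and -0.0302 to 0.0116 for LIN28B at day 4. For changes over 4 days they were -0.114 to 0.213 for L1TD1 in KO1, -0.0636 to 0.0792 for LIN28B in WT, -0.0211 to 0.156 for GAL in KO2 minus WT, and -0.212 to 0.127 for LCK and -0.248 to 0.0304 for THY1 in KO1 minus WT.

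Counts of the 9 genes moved as follows. How many of all features were called with a library left out was not counted. With upper-quartile factors, and with only the libraries compared, 1 rose in KO1. Without a filter, 1 gene was lower for the clone mean at day 4, 1 in each comparison of a clone or their mean with WT at day 0, and 2 were higher in the KO1 minus WT change. With only the libraries compared, the clone mean of day 4 had 4 higher and 1 lower, and KO2 at day 0 had 1 lower. With the 4 clone libraries as 1 group, 1 was higher at day 4 and 1 lower at day 0. DESeq2 gave 1 lower in KO2 and 1 in the clone mean at day 0. The replicate block gave 1 lower in that mean at day 0, GAL (-0.34, adjusted p = 0.04295), and the change of PODXL in KO2 minus WT passed (0.32, adjusted p = 0.04827). Deviations of libraries with the same replicate number correlated at -0.0403 to 0.155 over 15 pairs of groups, with 1 over 0.1. Such values cannot show whether the numbers pair the libraries, which the labels do not state. Leaving out 1 library gave 1 to 2 higher in the KO1 change, 1 to 2 higher in KO1 and 3 to 7 higher and 0 to 1 lower in KO2 against WT at day 4, and 2 to 4 higher and 0 to 1 lower in their mean. At day 0 it gave 0 to 1 higher and 0 to 3 lower in KO1, 0 to 1 lower in KO2, 0 to 3 lower in their mean, and 0 to 2 higher and 0 to 1 lower in KO2 against KO1. It gave 1 to 2 higher and 1 to 2 lower in the KO1 minus WT change, and 1 to 7 higher and 0 to 1 lower in the KO2 minus WT change.

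With 2 libraries a group and 1 clone a line, differences between clones and effects of the knockout cannot be told apart. Of 91 calls of list genes, 66 held in all alternatives, 25 were lost in some and 0 turned. DESeq2 gave no adjusted p for PENK in KO1.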
